A study of Mus musculus with 17 samples.

Results

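The genes described are those annotated to rRNA processing, the cutting, trimming and modification that turn a long precursor transcript into the RNAs of the ribosome. Members were all genes whose biological process annotation in the deposited tables carried that term, leaving out symbols that start with Rpl, Rps, Mrpl, Mrps, Eif or Psm. The rule gave 69 genes among the 18836 listed in at least 1 library, of which 13778 carried any biological process term. The term itself was carried by 98 genes, and 29 of them, mostly ribosomal protein genes, were left out by their prefix.

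The study grew neural retinal progenitor cells (mNRPCs) of adult C57BL/6 mice and measured their mRNA by RNA-seq of polyadenylated RNA. BM is the basal medium, B is BM with bFGF (a fibroblast growth factor), C is BM with CHIR99021 (an inhibitor of the kinase GSK3) and BC is BM with both. Each of these 4 treatments gave 1 library on each of days 1, 3, 5 and 7, and 1 further library is labelled day 0 with no treatment, which makes 17 libraries. By the methods, the cells had been expanded in medium that held both factors before the experiment. The paper's text describes the day 0 cells once as kept in BM and once as cells before treatment, so that library is called day 0 here without further claim. No treatment and day was repeated, so a p-value below measures departures from the fitted effects over 16 libraries, and not the spread between cultures. The fits held additive effects of bFGF, CHIR99021 and day. The interaction was added where it is named, and a bFGF effect within each day for results by day.

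In the nucleolus, RNA polymerase I makes one precursor that holds 18S, 5.8S and 28S rRNA. The small subunit processome, built on the U3 small nucleolar RNA, folds and cuts the 18S part. A second set of factors assembles the large, 60S, subunit, and the RNA exosome trims the 3′ ends of the intermediates. These factors are made in large amounts in growing and dividing cells, and bFGF is a mitogen for neural and retinal progenitors. The libraries hold polyadenylated RNA, so they measure the mRNAs of these factors and not rRNA or its processing.

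Depth ran from 17571973 to 19428744 expected counts per library, with 14820 to 15882 genes listed. The retinal progenitor markers Rax and Six6 stayed under an FPKM (read fragments scaled by transcript length and by the size of the library) of 1 in every library, as did the Müller glia markers Gfap, Rlbp1 and Slc1a3, all 6 photoreceptor markers and all 4 ganglion cell markers. The summed FPKM of 4 pericyte and fibroblast markers was 14.8 to 158 in the libraries without bFGF, 6.11 to 34.4 with bFGF and 4.11 on day 0, with Rgs5 under 1 in every library, so those markers moved with bFGF, and their part in the results below was not tested. In bulk RNA, fewer cells of a type and less RNA per cell cannot be told apart.

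Of the 69 members, 58 averaged an FPKM of 1 or more over the 16 cultured libraries and entered the tests, and 62 were listed in all 17 libraries. The 11 that did not enter included Samd15 and 9 predicted gene models. In all, 13 members were predicted models with Gm or LOC symbols, and the files assign 11 of those 13 to a ribosomal protein, so they passed the prefix rule by name alone. 4 of them entered the tests, and they are described apart from the 54 tested members with established symbols. Several central factors, among them Fbl, Nop56, Dkc1 and Pes1, do not carry the term and are given as neighbours of the pathway.

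One small complex held members that were called in opposite directions with bFGF. The same test called 34.6% of all genes higher and 33.9% lower, so this split is not set apart from that of other genes. Imp3, Imp4 and Mphosph10 code for proteins that bind each other in the small subunit processome and help U3 RNA pair with the precursor. In build GRCm38.p6 (mm10), Imp3 lies on chr9:56937500-56938398, Imp4 on chr1:34439829-34445747 and Mphosph10 on chr7:64376541-64392236. The 250 bases before each start site are shown, from the RefSeq promoter table, because Imp3 rose with bFGF, Imp4 fell and Mphosph10 did not pass the test. Capitals mark CACGTG, the E-box sequence that Myc and Max bind.
Imp3 (chr9:56937250-56937499, + strand): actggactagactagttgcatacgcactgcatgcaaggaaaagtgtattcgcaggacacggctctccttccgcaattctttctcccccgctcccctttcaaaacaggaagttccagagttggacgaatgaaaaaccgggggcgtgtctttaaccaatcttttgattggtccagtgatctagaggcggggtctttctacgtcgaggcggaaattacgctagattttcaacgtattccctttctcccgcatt
Imp4 (chr1:34439579-34439828, + strand): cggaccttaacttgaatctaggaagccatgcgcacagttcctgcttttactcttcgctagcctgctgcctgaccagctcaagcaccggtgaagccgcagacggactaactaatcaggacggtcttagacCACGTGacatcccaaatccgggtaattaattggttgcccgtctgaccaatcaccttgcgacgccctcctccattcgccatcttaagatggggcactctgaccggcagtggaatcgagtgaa
Mphosph10 (chr7:64392237-64392486, - strand): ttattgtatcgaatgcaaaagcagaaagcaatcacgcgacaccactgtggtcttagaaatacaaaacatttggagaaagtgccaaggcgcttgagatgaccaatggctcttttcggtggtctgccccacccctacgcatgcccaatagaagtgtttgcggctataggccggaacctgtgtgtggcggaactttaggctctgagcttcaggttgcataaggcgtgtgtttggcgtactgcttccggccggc
Imp4 held 1 CACGTG, whose first base lies 121 bases before the start site, and the windows of Imp3 and Mphosph10 held none. CACGTG reads the same on both strands, and it was searched from 250 bases before to 50 after the start. Of 69 members, 47 had an entry in the table, and 7 of their 57 windows held the motif (12.3%), against 9.98% of the windows of all genes tested and 7.15% of all windows. The 7 members were Imp4, Mdn1, Nop2, Rrp7a, Samd15, Utp14b and Utp20. Samd15 was not tested. Over days 1 to 7, Utp14b was higher with bFGF, Imp4 was lower, and Mdn1, Nop2, Rrp7a and Utp20 did not pass the test. On day 1, Mdn1, Nop2 and Utp20 were higher (6.21% of all genes). On day 7, Utp14b was higher, and Imp4, Mdn1, Nop2, Rrp7a and Utp20 were lower (38.8% and 39.6% of all genes). A match of letters is a description and not a binding site.

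Imp3 was the partner that rose. On days 1, 3, 5 and 7 its FPKM was 32.3, 32.0, 29.3 and 30.8 in BM and 33.1, 36.0, 30.2 and 29.4 in C. It was 43.9, 47.5, 58.6 and 46.6 in B and 44.0, 42.3, 60.7 and 69.3 in BC, beside 46.9 on day 0. Every library with bFGF was above every library without it. Over days 1 to 7 the change with bFGF was a log2 fold change 0.99 ± 0.16, adjusted p = 0.000360 (edgeR quasi-likelihood test with Benjamini-Hochberg adjustment, ± standard error, 8 libraries with bFGF against 8 without).

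Imp4 went the other way. Its FPKM was 13.8, 6.26, 8.47 and 9.14 in BM, 15.5, 8.29, 7.89 and 9.81 in C, 16.2, 4.34, 1.93 and 2.93 in B and 16.5, 5.48, 2.04 and 2.84 in BC on the same days, beside 28.4 on day 0. The day 1 libraries with bFGF stood slightly above those without, and from day 3 on both bFGF libraries of a day were below both others. The edgeR result over days 1 to 7 was a log2 fold change -0.73 ± 0.21, adjusted p = 0.00912. Mphosph10 did not pass the test for bFGF (edgeR log2 fold change 0.21 ± 0.13, adjusted p = 0.152), with an FPKM of 21.7, 8.97, 10.7 and 13.9 in BM, 17.7, 8.14, 11.3 and 12.6 in C, 26.8, 9.14, 12.0 and 13.3 in B and 27.5, 5.50, 8.02 and 7.46 in BC. Its B libraries lay near those of BM from day 3 on, while the BC libraries lay lowest on days 3, 5 and 7.

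**Figure D1:**
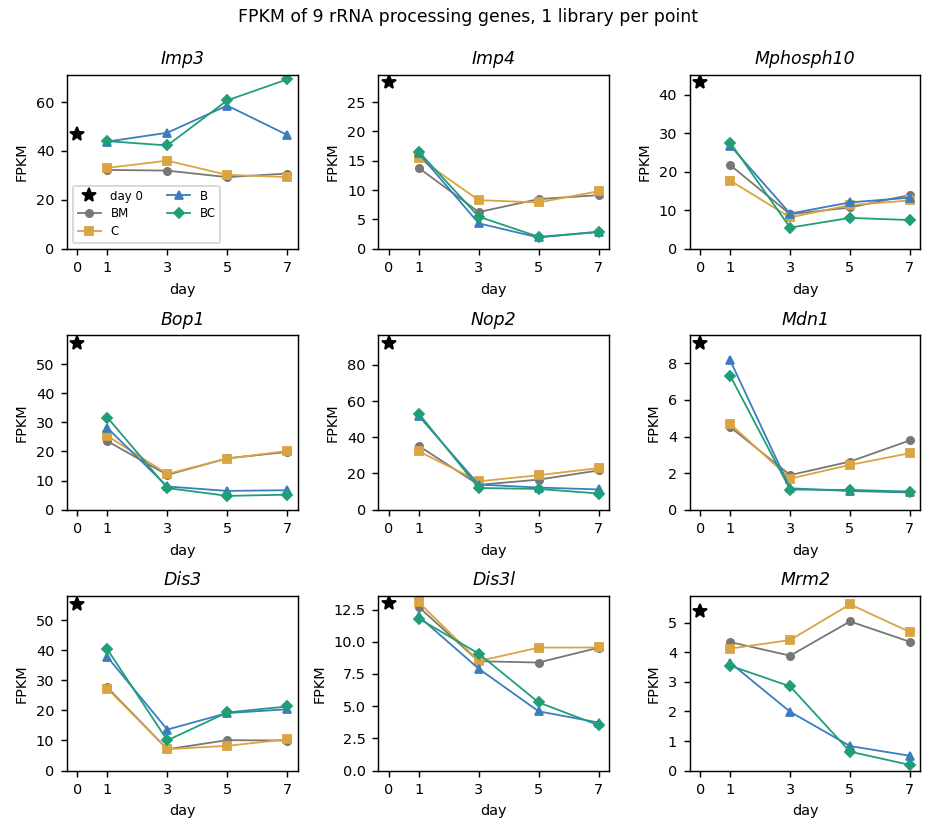
FPKM (linear axis from 0) against day of culture for 9 rRNA processing genes, 1 library per point, with BM (grey), C (yellow), B (blue), BC (green) and the day 0 library (black star). Imp3 and Dis3 were higher in every library with bFGF than in the libraries without it on the same day, while Imp4, Bop1, Mdn1 and Mrm2 were lower with bFGF on days 3, 5 and 7.

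The first question was how the genes changed as the cells left day 0. Of the 58 tested members, 36 had their highest FPKM of all 17 libraries on day 0, and these were all established genes (36 of 54). The share over all genes was not counted, so this count is not set apart from that of other genes. Nop2, a methyltransferase of 28S rRNA, stood at 92.1 on day 0 and at 35.2 in BM and 51.7 in B on day 1. On day 3 it was at 13.7 and 13.9. Rrp9, a protein of the U3 particle, went from 83.1 to 32.3 in BM and 48.2 in B on day 1, and to 9.31 and 10.6 on day 3. Both genes were lower on day 3 than on day 1 in either medium, and their B libraries were above their BM libraries on day 1.

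On the log2(FPKM + 1) scale, 11 members were at least 2 times lower than day 0 in BM on day 1, 13 in C, 1 in B and 0 in BC. Over all genes the shares were 1.78%, 2.39%, 0.622% and 0.799%. On day 3 the counts were 35, 32, 30 and 31 (15.3%, 15.4%, 12.4% and 14.2% of all genes), and on day 7 they were 30, 31, 34 and 34 (13%, 13.9%, 23.2% and 25.6%). In the other direction, 1 member was at least 2 times higher than day 0 on day 3 in each of BM, C, B and BC, where 22.3%, 21.9%, 15.7% and 18.7% of all genes were. The members' median difference from day 0 was -0.52 in BM and -0.31 in BC on day 1, and it lay between -1.22 and -1.08 on day 3, where the median of all genes was 0.06 to 0.18. The day 0 library has no replicate, so these differences have no test.

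**Figure D2:**
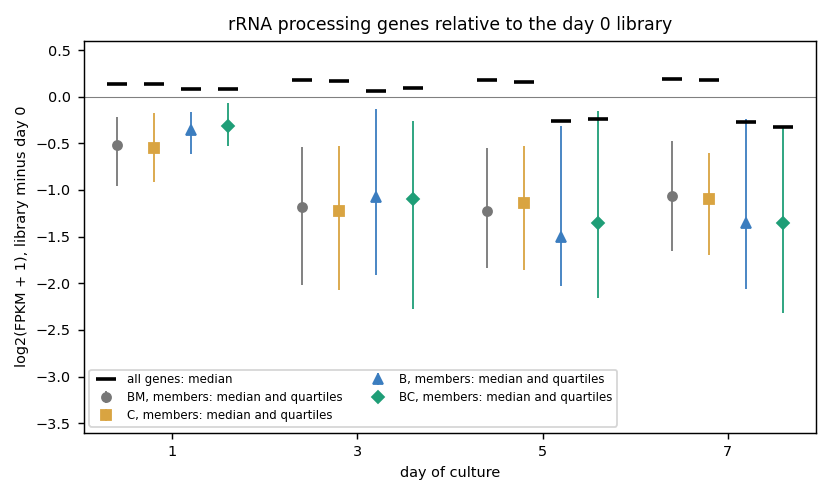
Difference in log2(FPKM + 1) of each cultured library from the day 0 library (vertical axis) by day (horizontal axis); coloured points are the median of 58 rRNA processing genes with bars from the lower to the upper quartile, and black dashes the median of all genes. The members' medians lie below 0 and below the median of all genes in all 16 libraries, and are nearest to 0 on day 1 with bFGF (-0.36 in B and -0.31 in BC).

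Between days 1 and 7 the fall could be tested. Without bFGF, 40 of 58 members were lower on day 7 than on day 1 and 4 were higher (edgeR, adjusted p under 0.05), where 31.5% of all genes were lower and 32.3% higher (63.8% in all). With bFGF, 37 were lower and 11 higher, where 39.5% of all genes were lower and 35.8% higher. The members' median log2 change was -0.59 in both cases, and with libraries scaled by their totals alone it was -1.03 with bFGF, where the median of all genes was -0.48. The 28 members that fell in both media included the processome factors Imp4, Mphosph10, Rrp9, Utp15, Utp20, Wdr36 and Wdr75 and the large subunit factors Ddx27, Ebna1bp2, Mdn1, Mrto4 and Nop2. The share of all genes that fell in both was not counted. The 4 that rose without bFGF were Chd7, Frg1, Sbds and Ybey. In that direction the count rests on day 1 and day 7 libraries, and it was 0 without the day 1 or the day 7 library of C, 1 without the day 1 library of BM, B or BC, and 2 without the day 3 library of BM or C, the day 5 library of BM or C, or the day 7 library of BM.

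The steps before and after day 3 were added as contrasts after the data had been seen. From day 1 to day 3, 42 members fell and 3 rose without bFGF (32% and 35.4% of all genes, 67.3% in all), and 38 fell and 4 rose with it (32.9% and 32.4%, 65.3% in all). From day 3 to day 7, 15 rose and 6 fell without bFGF (9.15% and 9.25% of all genes), and 30 rose and 11 fell with it (32.7% and 33.6%, 66.3% in all). The 15 that fell and then rose again without bFGF included Bop1, Nop2, Mdn1, Ebna1bp2, Utp20 and Rrp9. Both steps use the same day 3 libraries with opposite sign, so low day 3 values alone give a fall and then a rise. The shares of all genes that changed in both steps, with or without bFGF, were not counted. The 4 that rose from day 1 to day 3 with bFGF were 2 without the day 1 library of B or BC and 8 without the day 7 library of B or BC. With bFGF, 20 members fell and then rose, among them Ebna1bp2, Rrp9 and Dis3, and 7 fell in both steps, namely Ddx52, Ddx56, Dis3l, Imp4, Rcl1, Rrp7a and Wdr55. With libraries scaled by their totals alone, the split from day 3 to day 7 with bFGF was 15 higher and 19 lower. Without bFGF, the 15 were 6 without the day 3 library of BM, 8 without the day 7 library of BM and 6 without that of C, and the 6 that fell were 3, 3 and 1 without the day 3 library of BM, that of C or the day 7 library of C.

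The main comparison asked what bFGF did over days 1 to 7. Of 58 members, 27 were higher and 5 lower with bFGF, while 34.6% of all genes were higher and 33.9% lower, so a call either way was made for 68.4% of all genes. The members' median log2 fold change was 0.22, and that of all genes was -0.00. These values are relative to a scaling (TMM) that holds the typical gene at 0. With libraries scaled by their totals alone, the median gene moved by -0.29 with bFGF, and the split among members was 15 higher and 19 lower. The 15 higher there were also higher in the TMM fit, among them Imp3, Dis3, Suv39h1, Isg20, Npm3, Wbp11, Papd5 and Rrp1b, and the 5 lower in both fits were Bop1, Ddx17, Dis3l, Imp4 and Mrm2. The other 12 of the 27 were not past the threshold there, and Csnk1d and Ddx27 were below 0. Without any 1 of the 4 day 1 libraries, the number lower was 9 or 10.

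Among the 15 tested members of the small subunit processome, 6 rose with bFGF and 1, Imp4, fell, beside 34.6% of all genes higher and 33.9% lower. The share that rose was near that of all genes. Beside Imp3, the risers were Utp11l, Utp14b, Utp15, Wdr36 and Wdr75, and with libraries scaled by their totals alone only Imp3 and Utp14b of these passed. Wdr36, a propeller protein of the processome, had a day 1 FPKM of 32.8 (BM), 33.2 (C), 48.4 (B) and 48.5 (BC), and in the same order 16.4, 16.3, 14.0 and 11.1 on day 7. In FPKM, Wdr36 was thus above with bFGF on day 1 and below on day 7, where 62.2% of all genes were below. Its edgeR change on day 7 was 0.17 (adjusted p = 0.254). Over all days its edgeR change was 0.44 (adjusted p = 0.00104) and 0.15, not past the threshold, with libraries scaled by their totals alone. Utp14b, an intronless copy of the processome gene Utp14a, ran from 1.83 in C and 1.75 in BM to 4.19 in B on day 7, with 2.10 in BC. Its edgeR result over days 1 to 7 was a log2 fold change 0.90 ± 0.24, adjusted p = 0.00572.

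Utp20 and Rrp9 did not pass the test over all days. Utp20, a scaffold protein, had an FPKM of 11.6, 2.81, 3.98 and 4.98 in BM, 11.6, 2.83, 4.09 and 4.67 in C, 15.7, 2.56, 1.28 and 2.11 in B and 15.8, 1.91, 1.48 and 1.29 in BC. It was highest with bFGF on day 1 and lowest with bFGF on days 3, 5 and 7, and its edgeR change over all days was -0.44 (adjusted p = 0.0681). Rrp9 had 32.3, 9.31, 13.7 and 15.2 in BM, 36.2, 11.5, 15.3 and 17.4 in C, 48.2, 10.6, 8.41 and 11.4 in B and 55.0, 12.3, 10.5 and 14.1 in BC, with an edgeR change of 0.23 (adjusted p = 0.0558). In FPKM, both bFGF libraries of Rrp9 were above both others on day 1, and the groups overlapped on day 3. Both were below on days 5 and 7, as were those of 60.8% and 62.2% of all genes. Its edgeR changes were -0.18 on day 5 (adjusted p = 0.109) and 0.19 on day 7 (adjusted p = 0.0777), neither past the threshold.

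Of the 12 members that act on the 60S subunit, 5 rose with bFGF (Ddx27, Mrto4, Rrp1, Rrp1b and Sbds, of which Ddx27 was below 0 and only Rrp1b and Sbds passed with libraries scaled by their totals alone) and 1, Bop1, fell. Over all genes, 34.6% were higher and 33.9% lower, so the share that rose was near that of all genes. Bop1, which works in one complex with Pes1 and Wdr12, had an FPKM of 23.5, 11.9, 17.6 and 19.8 in BM, 25.3, 12.3, 17.5 and 20.1 in C, 28.0, 7.96, 6.45 and 6.68 in B and 31.6, 7.43, 4.74 and 5.15 in BC, beside 57.2 on day 0. It partly recovered after day 3 without bFGF and did not with it. The edgeR result over days 1 to 7 was a log2 fold change -0.65 ± 0.20, adjusted p = 0.0115. Its partner Wdr12, which does not carry the term, gave an edgeR change of 0.13 (adjusted p = 0.374; -0.15 with libraries scaled by their totals alone), and Pes1 one of 0.22 (adjusted p = 0.0128; -0.07 with libraries scaled by their totals alone).

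The paralogs Rrp1 and Rrp1b both passed the test upwards but differed in how firmly. Rrp1b had 9.63, 4.33, 5.37 and 5.64 in BM, 10.7, 4.58, 4.51 and 4.57 in C, 14.8, 5.97, 6.58 and 6.22 in B and 15.4, 4.69, 7.63 and 7.64 in BC. Every bFGF library was above both libraries without bFGF of its day (edgeR log2 fold change 0.58 ± 0.10, adjusted p = 0.000487). Rrp1 stayed between 81.4 and 104 in all 16 cultured libraries, and its edgeR change of 0.35 (adjusted p = 0.00147) was 0.06 and not past the threshold with libraries scaled by their totals alone. Its FPKM on day 0 was 103.

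Mdn1 and Nop2 showed a time course rather than a shift. Mdn1 codes for midasin, a very large ATPase that strips assembly factors off the 60S precursor, and its FPKM was 4.52, 1.89, 2.63 and 3.79 in BM, 4.69, 1.70, 2.45 and 3.09 in C, 8.16, 1.17, 1.02 and 0.940 in B and 7.32, 1.10, 1.08 and 0.990 in BC. Both bFGF libraries stood highest on day 1 and lowest on days 3, 5 and 7. Nop2 gave 35.2, 13.7, 16.6 and 21.7 in BM, 32.2, 15.6, 19.1 and 23.0 in C, 51.7, 13.9, 12.2 and 11.2 in B and 53.1, 12.0, 11.4 and 8.93 in BC. Over all days the edgeR changes were -0.47 (adjusted p = 0.0903) and -0.03 (adjusted p = 0.871), with differences of opposite sign on day 1 and on day 7. Ebna1bp2, another nucleolar 60S factor, had an edgeR change of 0.09 (adjusted p = 0.387).

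The exosome and related nucleases split by gene. Of 5 tested members, Dis3 rose, Dis3l fell, and Dis3l2, Exosc1 and Exosc3 did not pass the test (34.6% of all genes were higher and 33.9% lower). Dis3, the catalytic subunit of the nuclear exosome, had an FPKM of 27.6, 7.09, 10.1 and 9.99 in BM, 27.2, 7.12, 8.22 and 10.4 in C, 37.8, 13.6, 19.1 and 20.4 in B and 40.3, 10.1, 19.3 and 21.3 in BC, beside 55.6 on day 0. On each day both bFGF libraries were above both others (edgeR log2 fold change 0.95 ± 0.12, adjusted p = 8.27e-05). Dis3l, its cytoplasmic counterpart, had 12.7, 8.49, 8.39 and 9.54 in BM, 13.1, 8.50, 9.55 and 9.56 in C, 12.0, 7.91, 4.60 and 3.73 in B and 11.8, 9.08, 5.29 and 3.52 in BC. Both bFGF libraries were slightly below both others on day 1, the groups overlapped on day 3, and on days 5 and 7 the bFGF libraries were clearly lower (edgeR log2 fold change -0.31 ± 0.12, adjusted p = 0.0297). The call for Dis3l was lost with quantile normalization (-0.14), without the day 5 library of B, C or BC, and without any 1 of the 4 day 7 libraries (-0.30 to -0.24).

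Of the 2 members for mitochondrial rRNA, Mrm2 fell and Mterf4 did not pass the test over all days. Mrm2, a methyltransferase of the large mitochondrial rRNA, had an FPKM of 4.35, 3.89, 5.05 and 4.36 in BM, 4.13, 4.42, 5.63 and 4.69 in C, 3.65, 1.99, 0.830 and 0.500 in B and 3.55, 2.85, 0.640 and 0.190 in BC. Beside 5.39 on day 0, it lay between 3.89 and 5.63 without bFGF, and it was under 1 with bFGF on days 5 and 7 (edgeR log2 fold change -1.48 ± 0.38, adjusted p = 0.00457). Of 10 further genes of mitochondrial rRNA that do not carry the term, 6 were lower and 0 higher with bFGF (edgeR, also 0 higher at an unadjusted p under 0.05 and in DESeq2), with a median of -0.55. Among all genes, 33.9% were lower and 34.6% higher. Nsun4, the partner of Mterf4, had an FPKM of 6.48, 2.54, 0.870 and 0.720 in B against 7.53, 7.12, 6.92 and 6.92 in BM (edgeR log2 fold change -1.46 ± 0.35, adjusted p = 0.00297).

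The other 20 tested members with established symbols do not belong to one particle, and 11 of them rose while 1, Ddx17, fell (34.6% and 33.9% of all genes). Isg20, an exonuclease induced by interferon, had an FPKM of 35.0, 32.5, 24.6 and 18.3 in BM, 30.7, 34.7, 22.0 and 19.8 in C, 38.9, 57.4, 67.9 and 68.6 in B and 37.4, 67.6, 75.5 and 84.5 in BC, beside 15.7 on day 0. It fell over time without bFGF and rose with it (edgeR log2 fold change 1.47 ± 0.27, adjusted p = 0.000681). Suv39h1, a histone H3 lysine methyltransferase that silences rDNA repeats together with Rrp8, had 33.3, 11.7, 12.4 and 12.5 in BM, 35.0, 10.2, 12.5 and 11.9 in C, 37.3, 43.8, 24.2 and 19.1 in B and 39.8, 29.9, 26.0 and 19.5 in BC. Its widest gap was on day 3 (edgeR log2 fold change 1.24 ± 0.19, adjusted p = 0.000271 over days 1 to 7). Rrp8 itself gave an edgeR change of 0.19 (adjusted p = 0.0717).

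Further risers in that group were Npm3, a nucleolar histone chaperone, the splicing factor Wbp11 and the helicase Ddx47, with edgeR log2 fold changes of 0.89, 0.75 and 0.70. Pop4 and Pop5, protein subunits of the RNase P and RNase MRP enzymes, gave 0.31 and 0.38, and both passed the test, but neither did with libraries scaled by their totals alone. Ddx17, a helicase with further roles in splicing and transcription, had an FPKM of 137, 154, 161 and 166 in BM, 147, 154, 149 and 152 in C, 133, 137, 70.4 and 70.0 in B and 126, 146, 87.0 and 75.8 in BC, beside 92.7 on day 0. It ended above day 0 without bFGF and below it with bFGF (edgeR log2 fold change -0.34 ± 0.11, adjusted p = 0.0126).

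The 4 predicted models were the most highly expressed members. LOC105244208, which the files assign to ribosomal protein S6e, had an FPKM of 952, 543, 446 and 447 in BM, 1099, 622, 473 and 446 in C, 1096, 1107, 1198 and 1352 in B and 1199, 1199, 1220 and 1742 in BC, beside 1224 on day 0. It fell over time without bFGF. With bFGF it lay just below its day 0 value up to day 5 and above it on day 7. LOC100044627 and LOC100862455, both assigned to L23e, held identical FPKM values in 17 of 17 libraries, so they are 1 measurement. Each of them is still counted as a member in all counts given here. Without bFGF their day 7 FPKM stood at 209 (BM) and 219 (C), and with bFGF at 773 (B) and 1128 (BC). For Gm10045 (L21e) the day 7 values were 183, 183, 592 and 788 in the same order.

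The edgeR changes over days 1 to 7 were 1.38 for LOC105244208, 1.45 for each L23e model and 1.41 for Gm10045, all past the threshold. Such copies share reads with their parent ribosomal protein genes, so their levels are uncertain. The 29 genes that the prefix rule had left out gave 28 higher and 0 lower (edgeR, also at an unadjusted p under 0.05 and in DESeq2; 27 and 1 with libraries scaled by their totals alone), with a median of 1.33. Of the 27 members that rose, 4 were these models, and without them the count was 23 higher and 5 lower of 54, with a median of 0.19. Over all genes, 34.6% were higher and 33.9% lower.

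Taken by day, the bFGF effect changed its make-up. On day 1, 21 of 58 members were higher with bFGF and 0 were lower, while 6.21% of all genes were higher and 4.46% lower. At an unadjusted p under 0.05, 34 were higher and 0 lower, and DESeq2 gave 20 higher and 0 lower. The FPKM of both B and BC lay above both BM and C for 41 of 58 members, against 24.0% of all genes. The members' median log2 change was 0.35, and that of all genes was 0.04. Each day 1 call rests on 4 libraries, and the count fell to 2 without BC or C and to 4 without BM or B of that day. With libraries scaled by their totals alone it was 13, and 0 were lower.

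The 21 spread over the roles (6.21% of all genes were higher on day 1). They were 8 of 15 processome members, 7 of 12 large subunit members, 2 of 5 nucleases, 4 of the 20 in other roles, 0 of 2 mitochondrial members and 0 of the 4 predicted models. Mdn1 had the largest change, with an edgeR log2 value of 0.83 (adjusted p = 0.000666), then Nop2 with 0.72 (adjusted p = 0.00400). Ddx21, a helicase that couples polymerase I transcription to processing, had a day 1 FPKM of 41.6 (BM), 38.0 (C), 57.8 (B) and 59.9 (BC), with 107 on day 0. Those bFGF libraries lay between the libraries without bFGF and day 0.

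On day 3, 16 members were higher and 6 lower (25.4% and 25% of all genes, 50.4% in either direction), and with libraries scaled by their totals alone the split was 12 and 8. The 16 were 10 without the BM library and 9 without the B library of that day. On day 5, 26 were higher and 16 lower (37.2% and 38.6%; 14 and 28 by totals alone), and on day 7, 25 were higher and 20 lower (38.8% and 39.6%, together 78.4%), with a day 7 median of 0.18. With libraries scaled by their totals alone the median gene fell by 0.54 on day 7 and the split was 13 higher and 32 lower, with the 20 lower genes of the TMM fit among them. In FPKM, both bFGF libraries lay below both others on day 7 for 33 of 58 members, against 62.2% of all genes, and above for 18, against 24.8%.

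**Figure D3:**
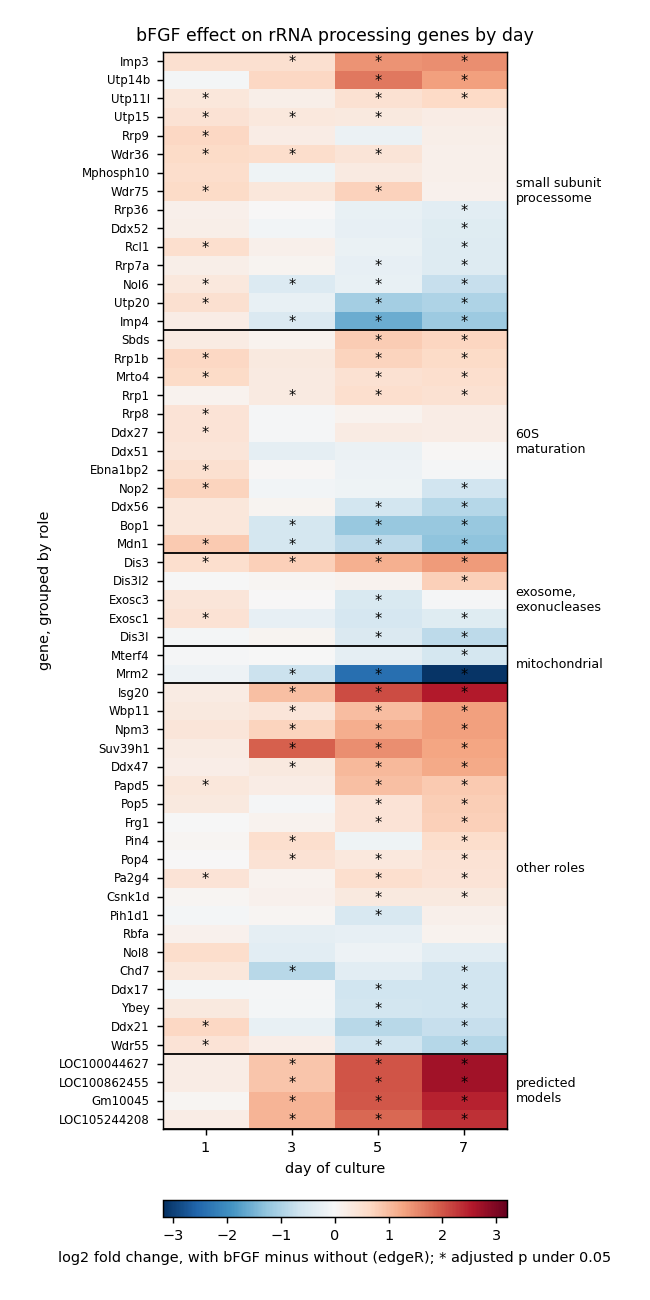
Log2 fold change with bFGF (edgeR; red higher, blue lower, colour scale below the plot) of 58 rRNA processing genes (rows, grouped by role) on days 1, 3, 5 and 7 (columns), with an asterisk where the adjusted p was under 0.05. Day 1 has 21 asterisks, all on higher values, and day 7 has 25 on higher and 20 on lower values, from Mrm2 at -3.15 to the L23e models at 2.68.

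The difference between the bFGF effects of day 7 and day 1 was tested directly. It passed for 41 of 58 members, 18 towards higher and 23 towards lower on day 7, where 65.4% of all genes passed, 31.3% towards higher and 34.1% towards lower. With libraries scaled by their totals alone it passed for 10 and 33. 8 members were higher with bFGF on day 1 and lower on day 7, namely Ddx21, Exosc1, Mdn1, Nol6, Nop2, Rcl1, Utp20 and Wdr55. All 8 members also passed the test of the difference, which takes the same effects from the same fit and is no separate support. 6 were higher on both days, namely Dis3, Mrto4, Pa2g4, Papd5, Rrp1b and Utp11l, but with libraries scaled by their totals alone only Dis3 and Papd5 of them were still past the threshold on day 7, and Pa2g4 was below 0. The other 7 of the 21 (Ddx27, Ebna1bp2, Rrp8, Rrp9, Utp15, Wdr36 and Wdr75) were not past the threshold on day 7. The shares of all genes with these patterns across days were not counted. By role, 7 of 15 processome members were lower and 3 higher on day 7, the 12 large subunit members split 4 and 4, both mitochondrial members were lower, and of 20 members in other roles 12 were higher and 5 lower, beside 38.8% of all genes higher and 39.6% lower.

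**Figure D4:**
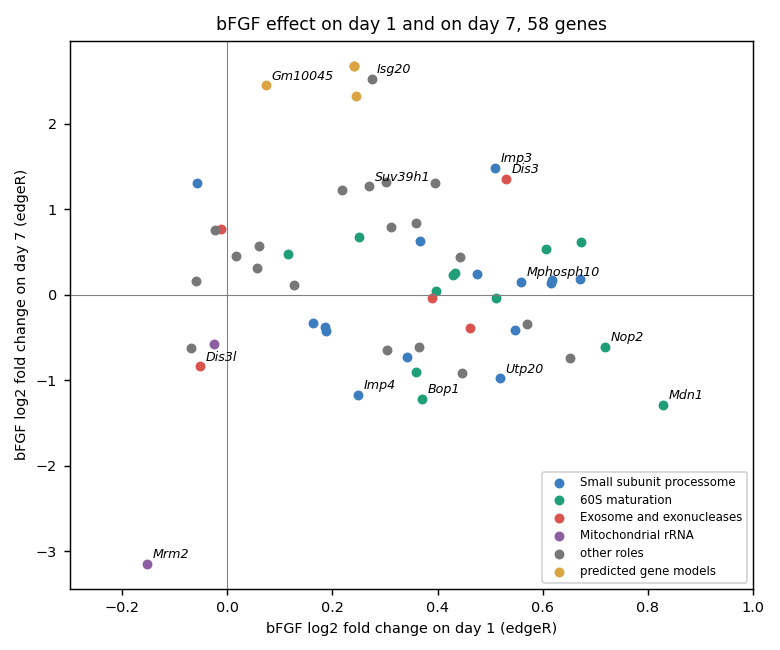
Log2 fold change with bFGF on day 1 (horizontal axis) against that on day 7 (vertical axis), both from edgeR, for 58 rRNA processing genes coloured by role. Mdn1 and Nop2 lie furthest to the right (0.83 and 0.72) and below 0 on day 7 (-1.28 and -0.61), while Isg20 and the predicted models lie highest.

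Transcript length was set beside the bFGF effect of each end of the time course. Over the 58 members, the day 7 log2 change with bFGF correlated with transcript length with a Spearman rho of -0.45, and over the 54 established members with -0.32, while over all 11272 genes rho was -0.28. On day 1 rho was 0.29 over the members and -0.03 over all genes. These are correlations across genes of the same libraries, which are not independent replicates, and the part that length or RNA quality has in the day 7 values was not tested.

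For CHIR99021, 0 of 58 members passed in edgeR, where 0.337% of all genes did (0.0532% higher and 0.284% lower). This fit left the change of the bFGF effect with day in its spread. That spread was 24.7%, against 10% with bFGF fitted within each day, where CHIR99021 was not tested. Smaller CHIR99021 effects could thus be missed. At an unadjusted p under 0.05, 1 was higher and 2 lower, DESeq2 called 1 lower, and each limma fit called 0. The edgeR log2 changes ran from -0.58 to 0.28, with a median of -0.01. Nol8, a nucleolar protein, was at the lower end (edgeR log2 fold change -0.58 ± 0.17, adjusted p = 0.206; DESeq2 -0.58, adjusted p = 0.0482), with an FPKM of 6.44, 4.03, 4.72 and 5.71 in BM, 4.48, 3.13, 3.18 and 4.39 in C, 7.15, 3.89, 3.21 and 4.06 in B and 7.68, 1.59, 1.81 and 1.76 in BC. Of 8 pairs of libraries of the same day and bFGF state, the one with CHIR99021 was the higher in 1, BC on day 1.

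Mphosph10 and Rrp9 had the next smallest p for CHIR99021. Mphosph10 gave an edgeR log2 fold change -0.30 ± 0.13, adjusted p = 0.424, and Rrp9 a log2 fold change 0.23 ± 0.10, adjusted p = 0.460, so neither passed. Whether bFGF acts differently with CHIR99021 was tested by their interaction. 0 of 58 members passed in edgeR (0.00887% of all genes), 0 at an unadjusted p under 0.05, and 0 in DESeq2. The interaction fit also left the change of the bFGF effect with day in its spread (25.4%). The interaction estimates ran from -0.84 to 0.25.

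The neighbours of the pathway that do not carry the term were counted in the same fits. Of 29 genes of polymerase I transcription and the nucleolus, 13 were higher and 6 lower with bFGF over days 1 to 7 (34.6% and 33.9% of all genes). On day 1, 16 were higher and 0 lower (edgeR and DESeq2, 0 lower also at an unadjusted p under 0.05), beside 6.21% and 4.46% of all genes. On day 7, 12 were higher and 12 lower, near the shares of all genes (38.8% and 39.6%). With libraries scaled by their totals alone the splits were 9 and 9, 11 and 0, and 8 and 17. Npm1, an abundant nucleolar chaperone, had an FPKM of 636, 259.7, 189 and 226 in BM, 717, 275, 192 and 211 in C, 753, 545, 521 and 764 in B and 883, 532, 623 and 805 in BC, beside 1261 on day 0 (edgeR log2 fold change 1.47 ± 0.24, adjusted p = 0.000396). Taf1c and Taf1d code for subunits of SL1, the factor that brings polymerase I to its promoter. Taf1c fell with an edgeR log2 change of -1.47 (adjusted p = 0.00446) and Taf1d rose with 1.28 (adjusted p = 0.000776). The largest fall in that list was that of Ncoa5, with -1.71 (adjusted p = 0.00301).

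The polymerase I subunits given here were also called in both directions, and the other subunits are not given. Polr1c and Polr1d, which polymerase III also uses, rose with edgeR changes of 0.74 and 1.19 (adjusted p = 0.00132 and 0.000876). Polr1a, the largest subunit, fell with -0.50 (adjusted p = 0.0239), and its day 1 change was 0.35 (adjusted p = 0.0407). Cd3eap, a further subunit, fell with an edgeR change of -0.69 (adjusted p = 0.012). The lists of ribosome assembly roles held 118 genes that do not carry the term. They include the 10 mitochondrial rRNA genes given above and share Nop56 and Nop58 with the 29 genes, so these sets overlap. Of the 118, 42 were higher and 17 lower over days 1 to 7, where 34.6% of all genes were higher and 33.9% lower. On day 1, 54 were higher and 0 lower (edgeR; DESeq2 53 and 0; 0 lower at an unadjusted p under 0.05), and on day 7, 39 were higher and 47 lower, where the shares over all genes were 6.21% and 4.46% on day 1 and 38.8% and 39.6% on day 7. By totals alone the splits were 25 and 41, 38 and 0, and 18 and 75. All 4 core genes of the C/D small nucleolar particles rose, Fbl, the rRNA methyltransferase, with 0.79, Nop56 with 0.56, Nop58 with 0.42 and Nhp2l1 with 0.41 (edgeR over days 1 to 7). By totals alone Fbl and Nop56 passed. Dkc1, which makes pseudouridine in the H/ACA particles, gave 0.21 (adjusted p = 0.0723; -0.08 by totals alone).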

How the data were processed

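Poly(A) RNA of mNRPCs was sequenced by the authors on the BGISEQ-500 in 17 libraries, 1 per treatment and day and 1 of day 0. The values deposited by the authors are, per gene, the expected count (reads estimated for the gene, with decimals) and the FPKM. The submitters' processing notes name Bowtie2, RSEM and mm10, while the paper's methods name eXpress for the FPKM; versions and settings are not given in the sources used here. Genes missing from a library's list were set to 0.

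Rounded expected counts entered the quasi-likelihood test of edgeR 4.0.16 under R 4.3.3 (TMM, Benjamini-Hochberg adjustment over 11272 genes of mean FPKM of at least 1 in 16 cultured libraries, threshold 0.05). Terms were day, bFGF and CHIR99021, then also their interaction, then bFGF within each day. The biological coefficient of variation was 24.7%, 25.4% and 10%. On simulated data for the comparison of bFGF over days 1 to 7 over 11272 genes, all of the 200 genes changed by a log2 of 1 or 2 were recovered (100%), with 10 false calls. The simulated spread was smaller than the fitted 24.7%, and the simulated bFGF effect was the same on every day. The simulation thus checks the code and does not give the recovery or the false calls to be had in these data. Day 0 was compared on log2(FPKM + 1), with no test. Alternatives used DESeq2 1.42.0, limma 3.58.1 and other filters, scalings, libraries and members. Python 3.11.15 was used for tables and matplotlib 3.10.9 for plots. Promoter sequences came from the RefSeq table of GRCm38.p6.

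The members and the gene lists were chosen with earlier results of these data known. Named genes were anchors of each role, the 8 largest rises and 5 largest falls with bFGF among members past the threshold, and the 3 lowest p for CHIR99021. Also named were the 3 largest differences between days in each direction, the 3 highest mean FPKM and paralog pairs that moved apart. The pairs Utp14a with Utp14b and Rrp1 with Rrp1b were taken in any case. The 4 largest changes among pathway genes outside the rule and members under the filter were named as well. Other genes named were chosen after their values were seen. Mpp6 was taken out of the nuclease list because the mouse symbol names another gene. Some results are not reported here.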

Additional observations from a re-analysis of the deposited data

Results flagged for a closer look

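The results in this part were singled out because the bFGF effect on day 7 differed from that on day 1 by a test of the difference itself (edgeR contrast within the fit of bFGF effects by day, Benjamini-Hochberg adjustment over all genes tested). The test passed for 41 of 58 members, and over all genes it passed for 65.4%. Values below are the day 7 minus the day 1 log2 fold change with bFGF.

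Among processome and large subunit genes, the difference was -1.42 for Imp4, -1.49 for Utp20, -0.48 for Rrp9, -1.59 for Bop1, -2.11 for Mdn1, -1.33 for Nop2 and -0.55 for Ebna1bp2. It was 0.98 for Imp3, 1.37 for Utp14b and 0.36 for Rrp1. For Rrp1 the direction turned with other scalings, and the call was lost without the day 1 library of BM or B or the day 7 library of BM, C or BC. For Utp14b the call was lost with libraries scaled by their totals alone (0.92), with limma at either pseudocount (0.62 and 0.83) and without the day 7 library of B (0.93).

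Among nucleases the difference was 0.83 for Dis3 (0.37, not past the threshold, with libraries scaled by their totals alone) and -0.78 for Dis3l, and for the mitochondrial gene Mrm2 it was -2.99. In other roles it was 2.25 for Isg20, 1.00 for Suv39h1, -0.56 for Ddx17 and -0.92 for Nol8. The call for Nol8 was lost with quantile normalization (-0.33), and without the day 1 library of BM, C or BC or the day 7 library of C or BC. For the predicted models it was 2.38 for Gm10045, 2.44 for LOC100044627, 2.44 for LOC100862455 and 2.09 for LOC105244208.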

How the results depend on the processing

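No paired analysis was possible by replicate number because each treatment and day has 1 library. Libraries with and without bFGF are matched by day and CHIR99021 state, and both were terms of the fit over days 1 to 7. The fitted spread holds departures from the fitted effects only, and day 0 has no second library. FPKM and TMM values are relative to all mRNA of a library, so absolute amounts per cell were not measured. In all, 11 members under a mean FPKM of 1 were not tested.

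With library size only, the median log2 change of members with bFGF over days 1 to 7 turned from 0.22 to -0.073, and counts of members higher and lower were 15 and 19 over all days, 13 higher on day 1, 14 and 28 on day 5, 13 and 32 on day 7, 10 higher for day 7 minus day 1, and 15 and 19 from day 3 to day 7 with bFGF. With limma on log2(FPKM + 1) they were 16 and 18, 15 and 29 on day 5, 15 and 31 on day 7, 11 higher for the difference, and 14 and 19 from day 3 to day 7 with bFGF. With a pseudocount of 0.1 they were 16 and 19, 11 higher on day 1, 15 and 29 on day 5, 15 and 31 on day 7, 11 higher for the difference, and 15 and 19 from day 3 to day 7 with bFGF. Quantile normalization gave 10 lower on day 5 and 6 higher from day 1 to day 3 without bFGF. It also gave 1 member at least 2 times above day 0 on day 7 in BM and 1 in BC, and centring on the median gene gave 3 in B. For Rrp1 the difference of day 7 minus day 1 turned from 0.36 to -0.10 with library size only, to -0.10 with limma at either pseudocount and to -0.21 with quantile normalization.

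Without a filter, 1 member rose from day 1 to day 7 without bFGF. With a mean FPKM of at least 5, 2 did, 3 were lower with bFGF on day 3, and 7 rose from day 1 to day 3 with bFGF. DESeq2 called 1 member lower with CHIR99021. Without day 1, 15 members were lower with bFGF, and on day 7 alone 16 were. Keeping the left-out prefixes gave 55 members higher, and the term ribosome biogenesis in place of rRNA processing gave 10 higher of 28. Leaving out the predicted models, an alternative added after seeing the data, gave 23 higher and 5 lower. The cause of these changes was not tested.

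Leaving out 1 library at a time, members higher and lower with bFGF ran from 25 to 29 and from 4 to 10 over all days, from 2 to 28 and 0 on day 1, from 9 to 19 and 4 to 6 on day 3, from 21 to 27 and 13 to 17 on day 5, and from 22 to 28 and 14 to 20 on day 7. The difference of day 7 minus day 1 ran from 16 to 19 higher and 19 to 25 lower. From day 1 to day 7 the ranges were 0 to 4 higher and 34 to 42 lower without bFGF, and 9 to 11 and 35 to 38 with it. From day 1 to day 3 they were 2 to 4 and 38 to 44 without bFGF, and 2 to 8 and 36 to 39 with it. From day 3 to day 7 they were 6 to 19 and 1 to 8 without bFGF, and 26 to 32 and 9 to 11 with it. CHIR99021 and the interaction stayed at 0 members in every such edgeR fit.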

Other observations

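Samd15, a member with an established symbol that stayed under a mean FPKM of 1, was not tested. It lay between 0.160 and 0.700 in all cultured libraries, and its highest values were those of BC on days 5 and 7.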
